A study of Mus musculus with 6 samples.

Results

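The genes described here were 10 members of the S100 and Ly6 families, S100a4, S100a6, S100a8, S100a9, S100a10, S100a11, Ly6a, Ly6c1, Ly6c2 and Ly6e, taken by symbol from the 32227 genes of the count files. Together they held 142534 of 53983893 unique molecular identifiers (UMIs) in the filtered cells of 6 libraries. S100 proteins are small calcium-binding proteins with EF-hand motifs that act on the cytoskeleton and on annexins inside the cell, and some act outside it. Ly6 proteins are small surface proteins held in the membrane by a GPI anchor. In CD8 T cells several genes of both families are known markers of antigen-experienced or memory cells, and Ly6a and Ly6c in particular are used to tell such cells from naive ones.

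The study asked how loss of PD-1 after positive selection changes thymic, splenic and tumor-infiltrating CD8 T cells, and its single-cell RNA sequencing covered both genotypes in each of the 3 tissues. Mice were C57BL/6 adults older than 8 weeks. The controls, Pdcd1fl/fl, carried the floxed alleles without Cre, and Pdcd1 cKO mice carried the same alleles with E8I CD8-Cre, a transgene driven by Cd8a sequences that deletes after positive selection. Thymus and spleen libraries came from 1 mouse each at baseline by CD8a isolation kit, and each tumor library pooled 3 mice, whose B16-OVA melanomas were taken at day 12 and passed over CD8 microbeads. With 1 library per genotype and tissue there was no replicate check, so no test between genotypes within a tissue was possible, a difference common to the 3 tissues was not tested, and the intervals below cover counting error only. In each pair of values the library labelled Pdcd1fl/fl comes first and the library labelled Pdcd1 cKO second.

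Pdcd1, which encodes PD-1, had 12 and 131 UMIs in thymus, 1 and 104 UMIs in spleen and 717 and 808 UMIs in tumor. Scaled to CPM, a gene's UMIs for every 1000000 UMIs of the cells counted, this was 1.88 and 6.84 in thymus, 0.450 and 11.7 in spleen and 76.4 and 102 in tumor. Over all filtered cells, the library labelled Pdcd1 cKO held more Pdcd1 RNA in each tissue, which in thymus and spleen goes against the labels. In tumor, cells with at least 1 UMI of Cd8a or Cd8b1 held 105 and 113 CPM. Markers of melanoma and other lineages also differed between the tumor libraries, as described below, and Pdcd1 without such cells is not given here. No direction is therefore read for Pdcd1 in tumor. The study reports the loss in this mouse model by flow cytometry, a check of the mice and not of these library labels. The counts come from 3′ ends of transcripts, and the exons flanked by loxP sites are not given in the sources used here, so a 3′ tag outside the deleted part would check nothing. The genotypes are therefore named as labels throughout.

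The filter on cells asked for 500 genes, 1000 UMIs and no more than 20% of UMIs from mitochondrial genes, and kept 1067 and 2635 cells in thymus, 1478 and 4928 cells in spleen and 456 and 561 cells in tumor. In the spleen library labelled Pdcd1fl/fl this was 21.3% of 6929 barcodes, whose median depth was 728 UMIs, and in the other 5 libraries it was at least 98.5%, so this library stands apart. The spleen libraries shared 2 barcodes and no other pair of libraries shared any. Cells with CD8 RNA, taken as at least 1 UMI of Cd8a or Cd8b1, numbered 589 and 1753 in thymus, 863 and 3885 in spleen and 344 and 512 in tumor, which was 55.2 and 66.5% in thymus, 58.4 and 78.8% in spleen and 75.4 and 91.3% in tumor. The share of kept cells with a UMI of Cd3e, a chain of the T cell receptor complex, was 72.8 and 76.4% in thymus, 25.0 and 42.7% in spleen and 66.2 and 87.9% in tumor. Not every kept cell therefore showed the RNA of a CD8 T cell. Median depth of the cells with CD8 RNA was 4353 and 5486 UMIs in thymus, 1374 and 1686 UMIs in spleen and 13497 and 9580 UMIs in tumor. The spleen libraries were the shallowest and the tumor libraries the deepest.

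In cells with CD8 RNA, S100a6, Ly6c1 and Ly6c2 were higher in spleen than in thymus, S100a4 and Ly6a were higher in tumor than in spleen, and Ly6c2 was lower in tumor than in spleen. Of the 10 genes, 8 had at least 100 UMIs over the libraries compared, and S100a8 and S100a9 did not. S100a6, Ly6c1 and Ly6c2 passed 2-fold in spleen against thymus under both labels, 3 of 8, beside 4.92% of all genes, and 0 of 8 passed it the other way, beside 9.66%. In tumor against spleen S100a4 and Ly6a passed it upward, 2 of 8, beside 16.1% of all genes, and Ly6c2 downward, 1 of 8, beside 26.1%. The tumor counts are close to those shares, so tumor against spleen says little about the 10 genes as a group. The median log2 ratio of all genes was -0.43 and -0.03 in spleen over thymus and 0.12 and -0.54 in tumor over spleen. Relative to it, S100a11 joined S100a4 and Ly6a as higher in tumor, and Ly6c2, at -2.001 and -0.94, was no longer past 2-fold under the Pdcd1 cKO label. Once cells with markers of other lineages, described below, were left out, S100a4, S100a11 and Ly6a passed 2-fold upward in tumor and Ly6c2 downward.

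**Figure D1:**
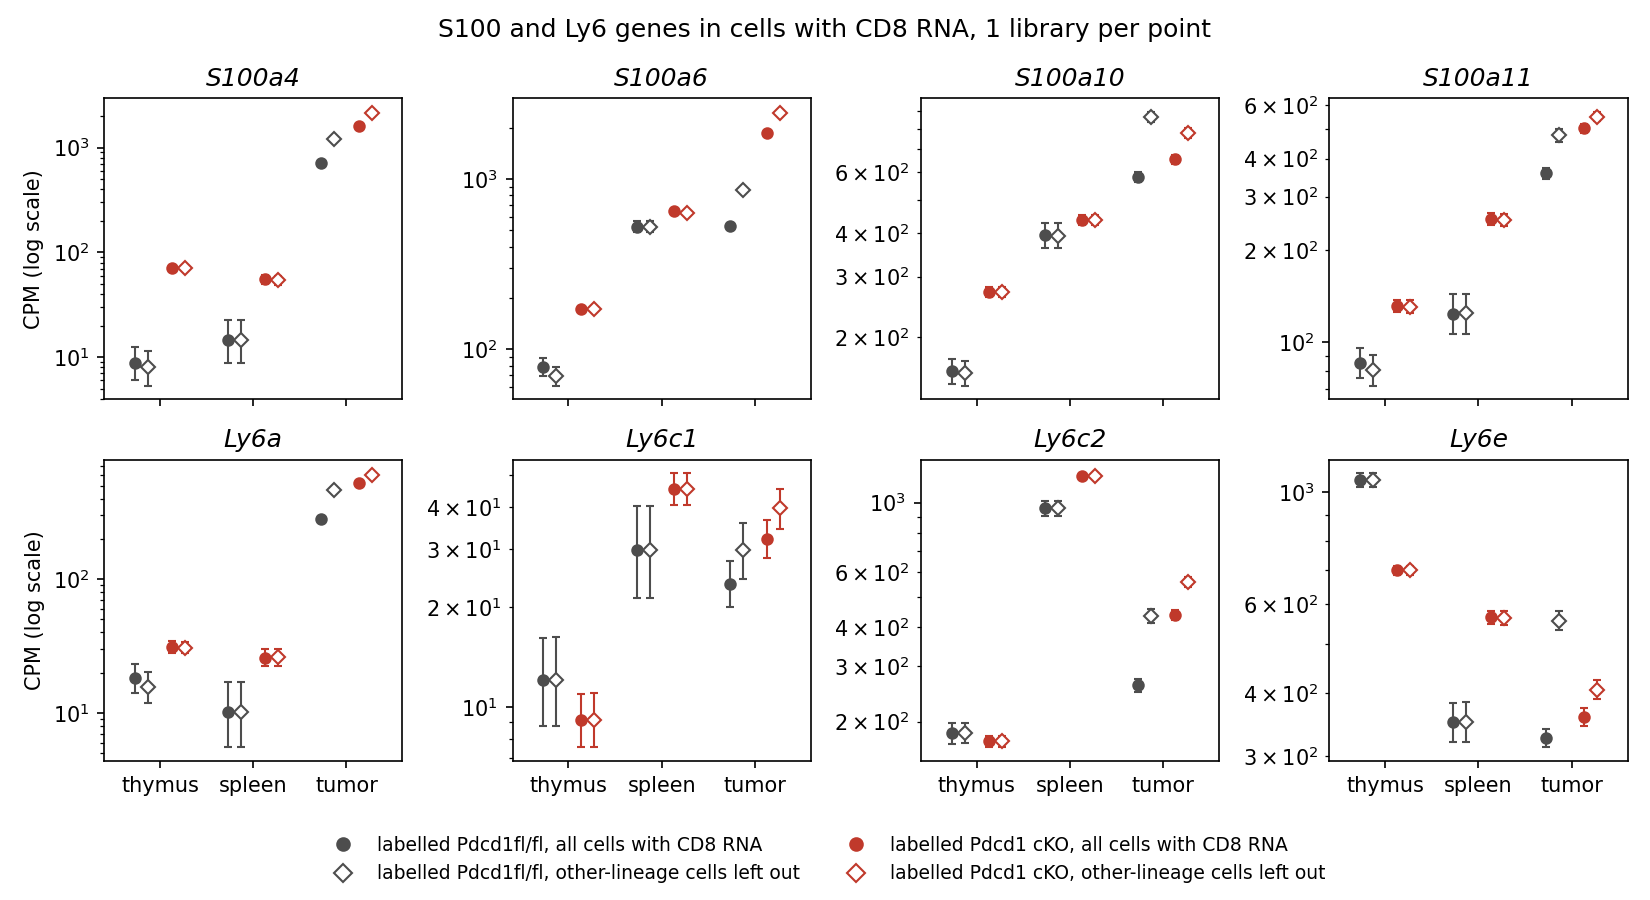
Levels of 8 of the genes in cells with CD8 RNA, in CPM on a log axis, by tissue, grey for the libraries labelled Pdcd1fl/fl and red for those labelled Pdcd1 cKO. Filled circles are all cells with CD8 RNA, open diamonds leave out cells with markers of other lineages, and bars are 95% Poisson intervals of the counting error of 1 library each. S100a4 and Ly6a lie highest in the tumor libraries and Ly6c2 in the spleen libraries.

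Between labels, S100a4 was higher in the Pdcd1 cKO library of each tissue, S100a6 passed 2-fold in thymus and tumor, and Ly6e was lower in thymus and higher in spleen. In thymus S100a4 and S100a6 were at least 2-fold higher in the library labelled Pdcd1 cKO, 2 of 8, against 2.56% of all genes, and 0 were lower, against 4.28%. In spleen S100a4, S100a11 and Ly6a were higher, 3 of 8, against 6.05%, and 0 were lower, against 0.748%. In tumor S100a4 and S100a6 were higher, 2 of 8, against 3.72%, and 0 were lower, against 6.22%. S100a4 was the only gene of the 10 past 2-fold in all 3 tissues, and in tumor it lay at 0.83 on the log2 scale, short of 2-fold, once cells with markers of other lineages were left out. The median log2 ratio of the 8 genes was 0.69 in thymus, 0.65 in spleen and 0.62 in tumor, beside -0.18, 0.18 and -0.14 for all genes, which is the shift against which the ratios below stand. Without other-lineage cells the tumor medians were 0.36 for the 8 genes and 0.08 for all genes. Relative to the shift in all cells with CD8 RNA, S100a4 lay at 3.19, 1.75 and 1.33 and S100a6 at 1.31, 0.13 and 1.95. Whether the ratios differed between tissues was not tested.

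**Figure D2:**
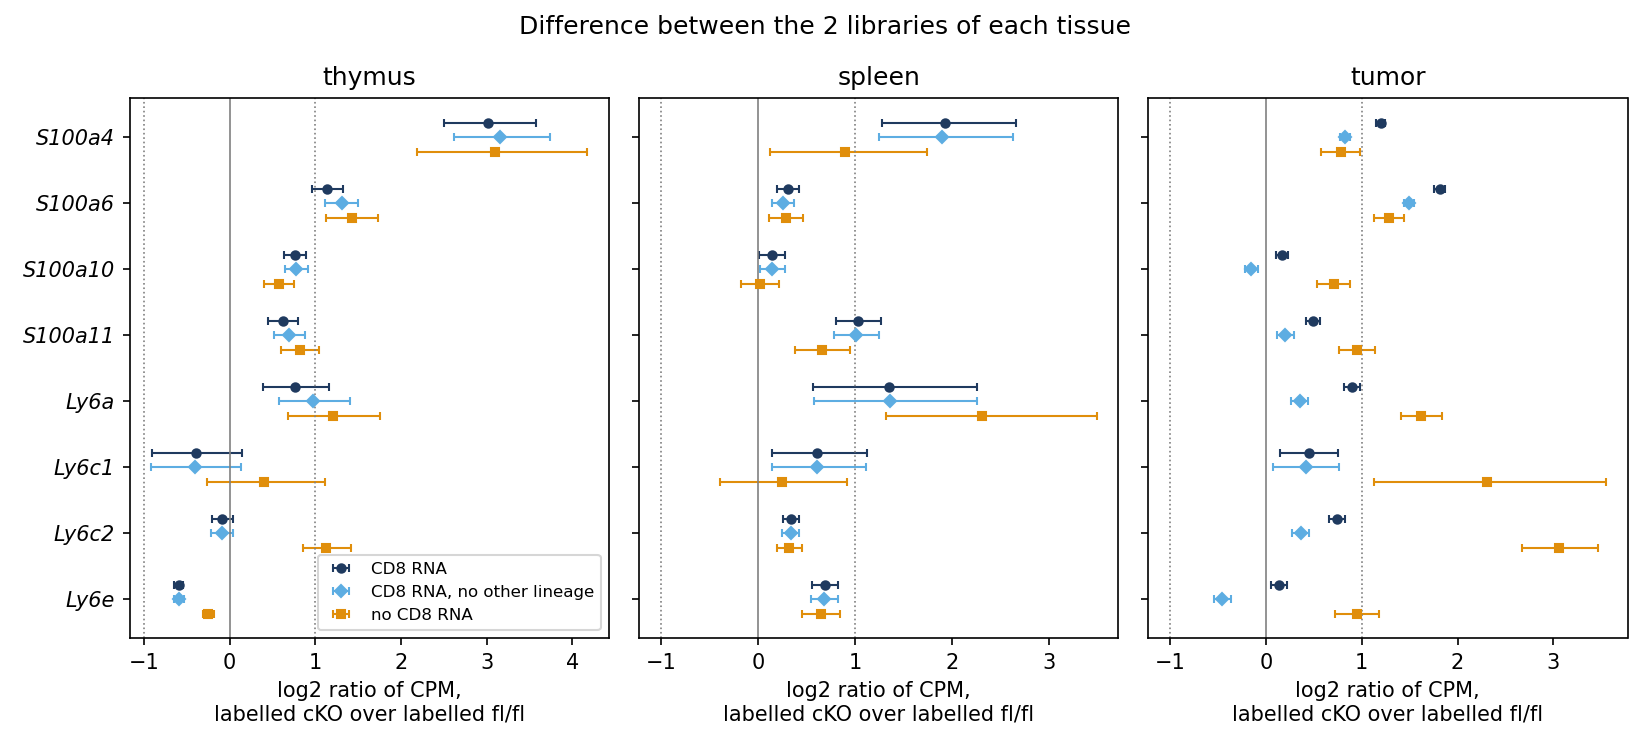
Log2 ratio of CPM between the labels, Pdcd1 cKO over Pdcd1fl/fl, for 8 of the genes in thymus, spleen and tumor, in cells with CD8 RNA, in those cells without other-lineage markers, and in cells without CD8 RNA. Bars are 95% conditional binomial intervals of counting error and dotted lines mark 2-fold. S100a4 lies above 0 in all 3 tissues among cells with CD8 RNA.

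S100a4, which binds non-muscle myosin and is a known marker of effector and memory T cells, ranged from 8.76 to 1622 CPM. In cells with CD8 RNA its level was 8.76 CPM (5.99 to 12.4) and 70.7 CPM (66.1 to 75.5) in thymus, with 95% Poisson intervals in parentheses. In spleen the levels were 14.5 CPM (8.85 to 22.4) and 55.2 CPM (49.9 to 60.8), and in tumor 707 CPM (687 to 728) and 1622 CPM (1592 to 1652). Tumor stood far above the other tissues under both labels, and within each tissue the library labelled Pdcd1 cKO was higher. The log2 ratio between labels was 3.01 (95% interval 2.51 to 3.57) in thymus, 1.93 (95% interval 1.28 to 2.66) in spleen and 1.20 (95% interval 1.15 to 1.25) in tumor. The lower libraries held 32 UMIs in thymus and 20 in spleen, so the intervals there are wide. Without the cell filter, which admits 5451 more barcodes of the spleen library labelled Pdcd1fl/fl, the spleen ratio was 2.21. Tumor over spleen, S100a4 was 48.8-fold higher under the Pdcd1fl/fl label and 29.4-fold higher under the Pdcd1 cKO label, and 84.1-fold and 40.0-fold without other-lineage cells. Spleen over thymus gave log2 ratios of 0.73 (-0.16 to 1.58) and -0.36 (-0.53 to -0.19), in opposite directions and the first with 0 inside its interval.

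S100a6, also called calcyclin, is a calcium sensor whose RNA is common in proliferating and antigen-experienced cells. Its level was 78.5 and 172 CPM in thymus, 525 and 650.4 CPM in spleen and 529.9 and 1860.1 CPM in tumor. Spleen was above thymus under both labels, by 2.74 (2.54 to 2.94) and 1.92 (1.84 to 1.99) on the log2 scale. Tumor over spleen it was 0.01 under the Pdcd1fl/fl label and 1.52 under the Pdcd1 cKO label, and without other-lineage cells 0.72 and 1.96. Only the libraries labelled Pdcd1 cKO passed 2-fold in that comparison. The log2 ratio between labels was 1.13 (95% interval 0.96 to 1.32) in thymus, 0.31 (95% interval 0.20 to 0.42) in spleen and 1.81 (95% interval 1.76 to 1.87) in tumor. Without cells of other lineages the tumor ratio was 1.49 (95% interval 1.44 to 1.55), past 2-fold.

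S100a10, the partner of annexin A2 at the plasma membrane, and S100a11, which pairs with annexin A1, had smaller ratios between labels than S100a4 in each tissue. S100a10 was at 159.8 and 271 CPM in thymus, 395 and 437 CPM in spleen and 582 and 654 CPM in tumor. S100a11 was at 85.4 and 131 CPM in thymus, 124 and 253 CPM in spleen and 358 and 503 CPM in tumor. Both lay in the order thymus, spleen, tumor under each label, which also held relative to the median of all genes. S100a10 had a log2 ratio between labels of 0.76 (95% interval 0.64 to 0.89) in thymus. In spleen it was 0.15 (95% interval 0.02 to 0.28), and -0.03 under median-of-ratios scaling. In tumor it was 0.17, and -0.15 (95% interval -0.22 to -0.09) without other-lineage cells, so no direction is given for S100a10 outside thymus. S100a11 had 0.62 in thymus, 1.03 (95% interval 0.81 to 1.27) in spleen and 0.49 in tumor, the last 0.20 without other-lineage cells. The spleen value, at the edge of 2-fold, was 0.86 under median-of-ratios scaling and 0.98 without the cell filter, so that call rests on the setting.

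S100a8 and S100a9, which form calprotectin in neutrophils and monocytes, were close to absent. Over all kept cells S100a8 had 0 UMIs in the thymus and spleen libraries and 4 and 6 in tumor, and S100a9 had 0 and 1 in thymus, 0 in both spleen libraries and 2 and 3 in tumor. A count of 0 allows up to 0.469 and 0.157 CPM in thymus and 1.35 and 0.336 CPM in spleen, taken as 3 counts per library. In tumor libraries, among cells with CD8 RNA, the 2 and 2 UMIs of S100a8 gave a log2 ratio of -0.09 (95% interval -3.87 to 3.70), and the 1 and 3 of S100a9 gave 1.499 (95% interval -2.14 to 7.21), so neither difference was detectable at this depth. Granulocyte markers in cells with CD8 RNA summed to 1.09 and 1.26 CPM in thymus, 2.17 and 85.9 CPM in spleen and 3.60 and 5.09 CPM in tumor, Mpo being the most abundant in the spleen library labelled Pdcd1 cKO at 31.3 CPM. Of the 11 markers, Camp, Lcn2, Retnlg, Cebpe and Fcnb had no UMI there, and S100a8 and S100a9 had none in that library either.

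Ly6a, the stem cell antigen Sca-1, is an interferon-responsive surface protein of activated T cells. It was at 18.3 and 31.1 CPM in thymus, 10.1 and 25.9 CPM in spleen and 282 and 524 CPM in tumor. The tumor libraries stood above the spleen libraries under both labels, by 4.80 (4.05 to 5.67) and 4.34 (4.13 to 4.56) on the log2 scale, and by 5.52 and 4.51 without other-lineage cells. The ratio between labels was 0.76 (95% interval 0.39 to 1.16) in thymus, 1.36 (95% interval 0.57 to 2.25) in spleen and 0.90 (95% interval 0.82 to 0.98) in tumor. In spleen the library labelled Pdcd1fl/fl held 14 UMIs, and after thinning each cell to 1000 UMIs the ratio was 0.97, just short of 2-fold. Without other-lineage cells the tumor ratio was 0.35 (95% interval 0.27 to 0.44).

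Ly6c1 and Ly6c2 encode the closely similar proteins read together as Ly6C, which marks memory-like and activated CD8 T cells. Ly6c2 was at 183 and 173 CPM in thymus, 959 and 1216 CPM in spleen and 261 and 438 CPM in tumor. It was highest in the spleen libraries, with log2 ratios of 2.39 and 2.82 in spleen over thymus and -1.88 and -1.47 in tumor over spleen, the last pair -1.14 and -1.12 without other-lineage cells. Between labels it was 0.34 (95% interval 0.26 to 0.43) in spleen and 0.74 (95% interval 0.66 to 0.83) in tumor, the latter 0.36 without other-lineage cells. In thymus it was -0.09 (95% interval -0.21 to 0.04) and turned to 0.09 under median-of-ratios scaling, so a difference was not detectable there. Ly6c1 was at 12.0 and 9.16 CPM in thymus, 29.7 and 45.5 CPM in spleen and 23.5 and 32.1 CPM in tumor. Between labels it was -0.39 (95% interval -0.91 to 0.14) in thymus, 0.61 (95% interval 0.14 to 1.12) in spleen and 0.45 (95% interval 0.15 to 0.75) in tumor, where thinning gave -0.06 and leaving out other-lineage cells 0.42. No direction is therefore given for Ly6c1 in thymus or tumor. Of the UMIs of both genes, Ly6c1 held 6.16 and 5.04% in thymus, 3.004 and 3.61% in spleen and 8.27 and 6.83% in tumor. Under the Pdcd1fl/fl label the Clopper-Pearson interval of that share was 7.07% to 9.60% in tumor and 2.16% to 4.05% in spleen. These intervals cover counting error of 1 library each. In that tumor library 38 of the 157 Ly6c1 UMIs lay in 1 cell. Without other-lineage cells it held 109 UMIs of Ly6c1 and 1597 of Ly6c2, with at most 4 of Ly6c1 in a cell. No difference in the share between tissues is therefore read.

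Ly6e, first known as thymic shared antigen TSA and also interferon-responsive, had its highest levels in thymus. It was at 1056 and 699.7 CPM in thymus, 349.8 and 565 CPM in spleen and 326 and 358 CPM in tumor. The thymus library labelled Pdcd1 cKO was lower, with a log2 ratio of -0.59 (95% interval -0.65 to -0.54), and the spleen library with that label higher, at 0.69 (95% interval 0.55 to 0.83). Both directions held under median-of-ratios scaling, at -0.42 and 0.51. In tumor the ratio was 0.14 (95% interval 0.05 to 0.22) and without other-lineage cells -0.45 (95% interval -0.54 to -0.37), so its direction there rests on which cells are counted. Spleen over thymus was -1.59 under the Pdcd1fl/fl label and -0.31 under the Pdcd1 cKO label, lower in spleen under both.

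Within each library, cells with CD8 RNA were compared with cells without it. The second class can hold CD8 T cells whose CD8 RNA was not read. In spleen its median depths were only 1252 and 1381 UMIs. Ly6c2 was higher with CD8 RNA in all 6 libraries, with log2 ratios of 1.94 and 0.72 in thymus, 0.22 and 0.24 in spleen and 3.24 and 0.92 in tumor. S100a4 gave 1.26 and 1.18 in thymus, -0.56 and 0.46 in spleen and 1.77 and 2.18 in tumor, and only the spleen library labelled Pdcd1fl/fl lay below 0, with an interval of -1.56 to 0.44. S100a6 was higher with CD8 RNA in all 6 libraries when all kept cells were counted, by 0.20 to 1.47. The tumor libraries held 112 and 49 cells without CD8 RNA, of which 99 and 37 had markers of other lineages. With such cells left out of both classes, an alternative chosen after seeing the data, 13 and 12 cells without CD8 RNA remained in tumor. S100a6 then gave -0.39 (95% interval -0.61 to -0.16) and 0.41 (95% interval 0.19 to 0.63) there. Of the 171 S100a6 UMIs without CD8 RNA under the Pdcd1fl/fl label, 60 lay in 1 cell. Under the Pdcd1 cKO label 53 of 178 did, so no direction is given for either value. Ly6c2 gave 3.45 (95% interval 2.32 to 4.90) and -0.33 (95% interval -0.68 to 0.04), and S100a4 0.10 (95% interval -0.12 to 0.33) and 0.98 (95% interval 0.70 to 1.27), so that Ly6c2 under the Pdcd1 cKO label and S100a4 under the Pdcd1fl/fl label had no direction clear of counting error. Part of the tumor directions thus rested on which cells were counted. In thymus and spleen the directions of S100a6 and Ly6c2 stood without such cells, from 0.17 and 0.22 upward. Ly6e was lower with CD8 RNA in thymus, at -0.13 (-0.19 to -0.06) and -0.47 (-0.52 to -0.42), and Ly6a lower in the spleen library labelled Pdcd1 cKO, at -1.03 (-1.41 to -0.65). Among cells without CD8 RNA, S100a4 differed between labels by 3.09 (95% interval 2.18 to 4.17) in thymus and 0.90 (95% interval 0.13 to 1.74) in spleen. Thymic S100a4 was therefore read at a higher level under the Pdcd1 cKO label in both classes. Whether all of it was RNA of the cells' own was not tested. In tumor the ratio among cells without CD8 RNA was 0.78, and -0.05 (95% interval -0.42 to 0.31) without other-lineage cells. Ly6c2 among cells without CD8 RNA gave 1.13 (95% interval 0.86 to 1.41) in thymus and 3.06 (95% interval 2.67 to 3.47) in tumor. Without other-lineage cells the tumor value was 4.14 (95% interval 2.94 to 5.64), from 6 and 68 UMIs, 40 of the latter in 1 cell.

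Markers of other lineages were read in the tumor libraries and differed between labels. Among cells with CD8 RNA there, 71 and 57 had at least 3 UMIs and at least 0.2% of their UMIs from a list of another lineage, against 2, 1, 2 and 8 in the thymus and spleen libraries. All 6 melanoma markers were read in cells with CD8 RNA and summed to 6974 and 3968 CPM, led by Dct at 2609.9 and Pmel at 1410.3 CPM, and to 241 and 164 CPM once those cells were left out. All 11 macrophage or monocyte markers were read, with 479 and 805 CPM, led by Apoe, and 6 and 7 of 8 dendritic markers, with 237 and 844 CPM, led by H2-Aa. Xcr1 and Clec9a had no UMI in the first library and Cd209a none in the second. Stroma markers summed to 229 and 1.27 CPM, led by Col1a2, and endothelial markers to 110.2 and 138 CPM, led by Cdh5. These lists move with the label. In melanoma-marker cells S100a4 was at 26.7, 20.9, 101 and 74.7 CPM, for cells with and without CD8 RNA under the Pdcd1fl/fl label and then under the Pdcd1 cKO label. These levels were far below those of cells with CD8 RNA and no other lineage in the same libraries, which held 1220.3 and 2163 CPM. S100a6 was at 26.0, 31.5, 134 and 129.9 CPM in the melanoma-marker cells and at 867 and 2441 CPM in those other cells. In cells with macrophage or monocyte markers and no CD8 RNA, 14 and 10 cells, S100a4 was at 1076 and 674 CPM, S100a6 at 1705 and 1601 CPM, Ly6a at 852 and 1806 CPM and Ly6c2 at 93.9 and 915 CPM. Single cells carried much of this. The most S100a4 UMIs in 1 cell were 42 of 149 and 32 of 56, and the most Ly6c2 UMIs 5 of 13 and 38 of 76. In cells with dendritic markers and no CD8 RNA, 9 and 6 cells, S100a4 was at 2598 and 1788 CPM and S100a6 at 3584 and 3388 CPM. S100a4, S100a6, Ly6a and Ly6c2 were thus also read in myeloid cells under both labels.

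The share of cells with CD8 RNA that had a UMI of S100a4 was 2.89 and 14.4% in thymus, 1.74 and 6.98% in spleen and 75.3 and 96.7% in tumor. Depth differed between libraries, so each cell was thinned to 1000 UMIs, and the shares became 1.53 and 6.62% in thymus, 1.51 and 4.76% in spleen and 41.3 and 71.9% in tumor, with 95% intervals in tumor of 36.0 to 46.7% and 67.8 to 75.7%. Melanoma-marker cells were set beside them in tumor, and whether these hold RNA of their own of the genes was not tested. Their median depths were 42137 and 23565 UMIs under the Pdcd1fl/fl label and 38310 and 31089 UMIs under the Pdcd1 cKO label, with and without CD8 RNA. In the same order S100a4 was read in 55.4%, 39.5%, 94.7% and 76.2% of them unthinned and in 1.54%, 3.95%, 7.89% and 9.52% thinned, below the thinned shares of cells with CD8 RNA in tumor. No such cells were counted in thymus or spleen, so those shares have no such comparison. For S100a6 the shares were 18.0 and 27.7% in thymus, 38.7 and 53.0% in spleen and 79.7 and 98.4% in tumor unthinned and 7.30 and 12.9% in thymus, 30.8 and 39.2% in spleen and 38.1 and 74.2% in tumor thinned, against 3.08%, 6.58%, 13.2% and 4.76% of thinned melanoma-marker cells. For Ly6c2 they were 31.6 and 24.8% in thymus, 61.8 and 70.3% in spleen and 71.5 and 76.2% in tumor unthinned and 14.8 and 10.2% in thymus, 49.7 and 56.5% in spleen and 24.4 and 29.3% in tumor thinned, against at most 5.26%. After thinning, Ly6c2 was thus most widespread in spleen. For Ly6e they were 92.9 and 87.2% in thymus, 34.4 and 56.9% in spleen and 87.8 and 90.0% in tumor unthinned and 56.2 and 39.2% in thymus, 26.7 and 40.5% in spleen and 35.8 and 31.2% in tumor thinned, against at most 5.26%. Thinned, the Ly6e share was largest in the thymus library labelled Pdcd1fl/fl.

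Cells with CD8 RNA and no other-lineage markers were split by RNA of textbook markers. Ccl5, a chemokine of effector and memory cells, was present in 38.7 and 55.8% in thymus, 86.9 and 97.8% in spleen and 85.0 and 97.1% in tumor. Cells without Ccl5 but with Ccr7, the homing receptor of naive and mature cells, made up 29.98 and 29.6% in thymus, 4.76 and 1.03% in spleen and 11.4 and 1.76% in tumor. Cells with neither but with Dntt or Rag1, markers of immature thymocytes, made up 25.4 and 10.3% in thymus. A UMI of Ccl5 was also read in 27.5 and 52.9% of thymic cells with Dntt or Rag1 RNA, at median depths of 5196 and 6119 UMIs, and in 84.4 and 98.3% of melanoma-marker cells, at 31932 and 34344 UMIs. Thinned to 1000 UMIs, an alternative chosen after seeing the data, the Ccl5 share was 17.5 and 25.5% in thymus, 79.8 and 94.0% in spleen and 34.1 and 71.9% in tumor, beside 9.01 and 16.6% of the Dntt or Rag1 cells and 3.55 and 22.0% of the melanoma-marker cells. Both kinds of share were larger under the Pdcd1 cKO label, so no difference in the number of Ccl5 cells is read from them, and in tumor the class does not set T cells apart. The classes below therefore describe cells by a UMI and not by type. In thymic Ccl5 cells S100a4 was at 9.97 and 108 CPM, a log2 ratio of 3.44 (2.68 to 4.32). In thymic Ccr7 cells it had 1 and 39 UMIs, with a ratio of 3.66 (1.09 to 8.998), and in immature cells 2 and 31 UMIs, with 3.25 (1.28 to 6.36). In the 35 and 75 thymic cells with none of these markers no difference was detectable, from 12 and 23 UMIs at 87.5 and 70.9 CPM, with -0.30 (-1.37 to 0.84). The unmarked class is small, and whether the ratio differed between classes was not tested. S100a6 in thymic Ccl5 cells was at 155 and 263 CPM, a ratio of 0.76 (0.56 to 0.97), short of 2-fold. In Ccr7 and immature thymic cells S100a6 was low, at 12.7 and 27.7 CPM and at 8.42 and 29.9 CPM. Ly6c2 in thymic Ccl5 cells was at 383 and 246 CPM, lower under the Pdcd1 cKO label by a ratio of -0.64 (-0.78 to -0.50), while no difference was detectable over all thymic cells with CD8 RNA. Of the 3 marked classes Ly6e stood highest in immature thymic cells, at 1229 and 949 CPM, then in Ccl5 cells at 1005 and 709.7 CPM and in Ccr7 cells at 941 and 548 CPM, and was lower under the Pdcd1 cKO label in each.

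In spleen, where the Ccl5 class held most cells, S100a4 was at 15.6 and 54.7 CPM in it, a log2 ratio of 1.81 (1.14 to 2.55). S100a6 was at 571 and 636 CPM and Ly6c2 at 1029 and 1225 CPM. In tumor, unthinned, a UMI of Ccl5 was read in as large a share of melanoma-marker cells, so the class is weaker there. Tumor S100a4 in it gave a ratio of 0.73 (0.68 to 0.78), short of 2-fold, and S100a6 gave 1.43 (1.37 to 1.49).

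**Figure D3:**
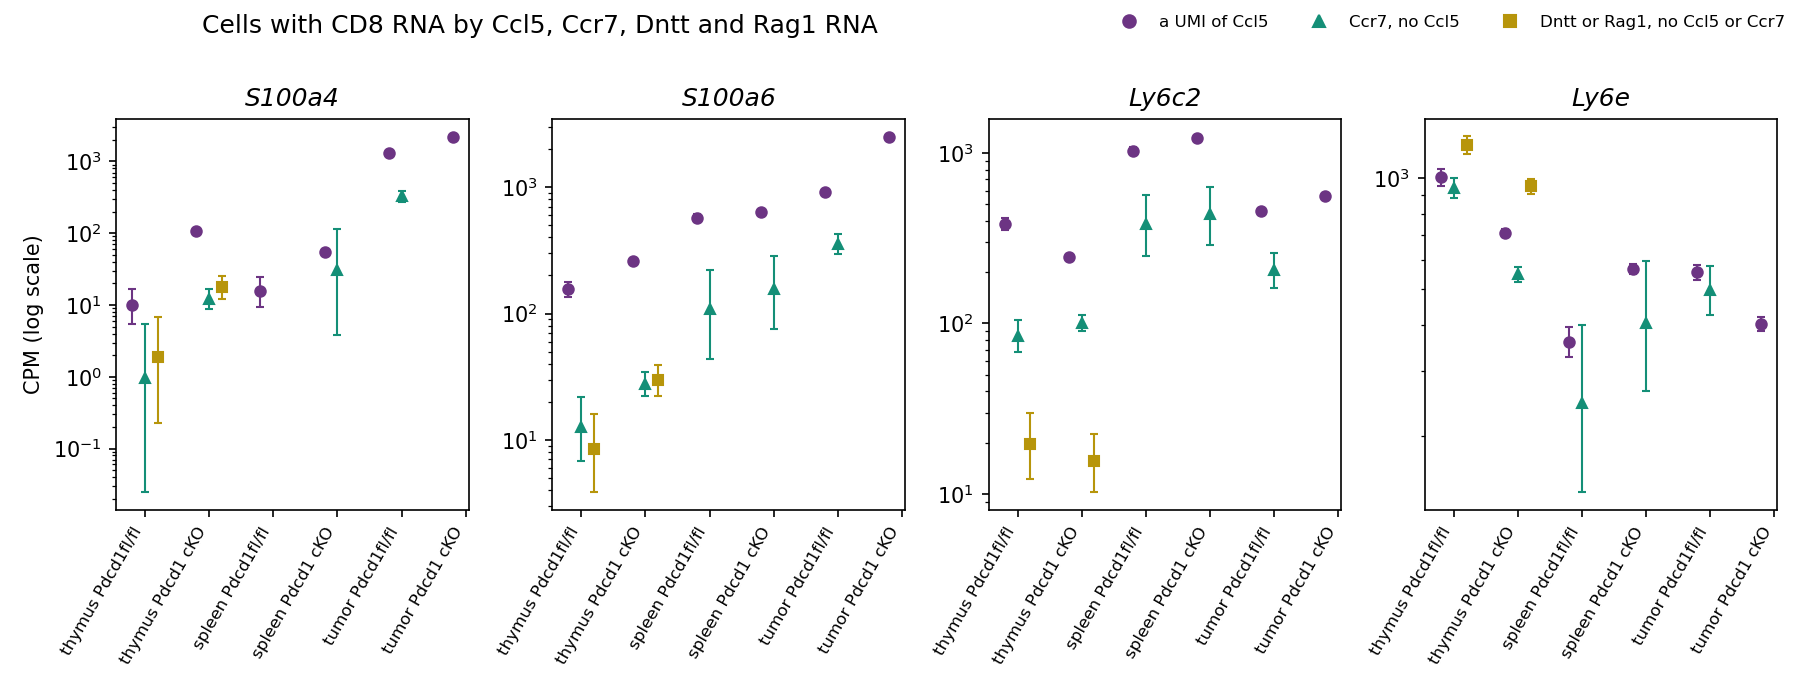
Levels of S100a4, S100a6, Ly6c2 and Ly6e, in CPM on a log axis, in cells with CD8 RNA that hold Ccl5 RNA, else Ccr7 RNA, else Dntt or Rag1 RNA, in the 6 libraries, with other-lineage cells left out. Bars are 95% Poisson intervals of counting error, and classes of under 20 cells or with 0 UMIs are not drawn. S100a6 lies higher in Ccl5 cells than in Ccr7 cells of thymus, and Ly6e lies highest in immature thymic cells. In tumor a UMI of Ccl5 was as common in melanoma-marker cells.

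How the RNA was spread over cells was read from the thinned cells without other-lineage markers. The mean number of S100a4 UMIs per 1000 was 0.0170 and 0.108 in thymus, 0.0209 and 0.0591 in spleen and 1.30 and 2.42 in tumor, and the 90th percentile in tumor was 4 and 6 UMIs. S100a6 had a mean of 0.112 and 0.243 in thymus, 0.537 and 0.633 in spleen and 0.923 and 2.73 in tumor. In the tumor library labelled Pdcd1 cKO the median cell held 2 UMIs of S100a4 and 2 of S100a6 per 1000, and in the thymus libraries the median was 0 for both. Cells with a Ly6c2 UMI were compared with cells without one, within the cells with CD8 RNA and no other lineage. Ly6c1 gave log2 ratios of 1.32 and 2.37 in thymus, 0.91 and 1.21 in spleen and 3.93 and 4.59 in tumor, higher with Ly6c2 in 5 libraries, while in the spleen library labelled Pdcd1fl/fl the 95% interval of -0.19 to 2.16 took in 0. For S100a6 they were 3.06 and 0.90 in thymus, 1.15 and 0.72 in spleen and 0.72 and 0.04 in tumor, higher with Ly6c2 in 5 libraries, while in the tumor library labelled Pdcd1 cKO the 95% interval of -0.03 to 0.10 took in 0. S100a4 had no common direction, at -0.07 and -0.24 in thymus, 1.58 and -0.27 in spleen and 0.33 and -0.20 in tumor. Since 2 genes read in the same cell share its depth, these ratios describe co-detection and no more. Ly6c1 and Ly6c2 are also 98.2% identical over the last 500 bases of their transcripts. Whether Ly6c2 reads were counted as Ly6c1 was not tested, so their ratio is not read as shared expression.

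Over 12 points, the 6 libraries each with and without CD8 RNA, log2(CPM + 1) of the genes was compared by Pearson's r as a description, the points sharing libraries. In tumor 99 of the 112 and 37 of the 49 cells without CD8 RNA had markers of other lineages. The values of r thus mix tissue, label and kind of cell. S100a6 and S100a10 were alike at 0.97, Ly6c1 and Ly6c2 at 0.95 and S100a4 and Ly6a at 0.93. The value for Ly6c1 and Ly6c2 carries the same limit of nearly identical transcript ends. Ly6e ran opposite to the S100 genes, from -0.70 to -0.63 over S100a4, S100a6, S100a10 and S100a11. Among 11075 genes with at least 200 UMIs, those most like S100a4 were Gm14164, Fancc and Gm41545, with r from 0.96 to 0.98. For S100a11 they were Cflar, Serpina3f and Id2. For Ly6a they were Gm35769, Gm33125 and Actg1, for Ly6c1 Ly6c2, Bscl2 and Nkg7, for Ly6c2 Gsap, Cd53 and Chil4, and for Ly6e Spint2, Trp53i11 and Tmem39b.

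Lists of related genes gave the setting of these ratios in cells with CD8 RNA. Of all genes with at least 20 UMIs over the libraries compared, 6.46% up and 6.56% down were past 2-fold in thymus, 10.8% up and 2.89% down in spleen and 7.24% up and 9.99% down in tumor, a count of 0 being taken as 3. All 12 memory genes were measured, with at least 20 UMIs over the libraries compared, and those past 2-fold were 4 up and 1 down in thymus, 4 up and 0 down in spleen and 4 up and 1 down in tumor. Gzmk, a granzyme, had the highest log2 ratio in thymus and spleen, at 2.31 and 2.17, and Gzma in tumor at 2.67. The lowest were Gzma at -1.13 in thymus, Crip1 at -0.02 in spleen and Itgb1 at -1.09 in tumor, so Gzma was past 2-fold down in thymus and up in tumor. Of 13 measured interferon genes, 7 were past 2-fold up in thymus, 3 in spleen and 4 in tumor, 0 down in each, with medians of 1.02, 0.48 and 0.36. The highest were Ifit3 at 1.78, Ifit1 at 1.86 and Irf7 at 1.66, and the lowest Bst2 at 0.24, Oasl2 at -0.17 and Usp18 at -0.16. Thymic Ly6e, at -0.59, thus lay opposite to the median of this list. Of 10 naive genes 3 were past 2-fold down in tumor and 0 in the other tissues, Ccr7 in tumor being lowest at -2.06, with Tcf7 at -0.68 in thymus and S1pr1 at -0.53 in spleen. Of 12 other S100 genes, 1, 2 and 4 were measured in thymus, spleen and tumor, and 0 up and 1 down were past 2-fold in tumor and none elsewhere. S100a1 in spleen, with 0 and 26 UMIs, lay at 0.71 with 3 counts in place of 0, short of 2-fold, and S100a13, the other gene measured there, at 0.08. S100a13 was the gene measured in thymus, at -0.33, and the highest in tumor, at 0.87, where S100a16 was lowest at -3.52. S100b and S100a1, read in the tumor libraries, stood at 303 and 156 CPM and at 307 and 219 CPM there. These levels count the melanoma-marker cells with CD8 RNA, and levels without them are not given here. S100b had 0 UMIs in thymus and spleen. Of 25 other Ly6 family genes, 7, 3 and 6 were measured, with 0 up and 2 down in thymus, 2 up and 1 down in spleen and 3 up and 2 down in tumor. The highest were Lypd6b at 0.92, Ly6d at 3.43 and Ly6d at 3.72, and the lowest Cd59b at -1.41, Lypd6b at -1.24 and Cd59b at -1.47. Ly6d, a marker of early lymphoid cells, was at 634 and 472 CPM in thymus and had 1 and 57 UMIs in spleen. Of 12 annexins and S100 partners, 9, 8 and 11 were measured, with 0 up and 1 down in thymus, 2 up and 0 down in spleen and 1 up and 0 down in tumor. Anxa1, a partner of S100a11, was lowest in tumor at -0.81 and highest in spleen at 3.80, from 1 and 74 UMIs, and at 2.55 in spleen without other-lineage cells. In thymus it was lowest at -1.73, but without the 2 and 1 other-lineage cells Anxa4 was lowest at -0.71 and the list had 1 up and 0 down. Ahnak was highest in thymus at 0.71, Anxa5 lowest in spleen at 0.17 and Anxa3 highest in tumor at 1.96. Several tumor counts also changed without other-lineage cells, where 9.61% up and 4.35% down of all genes were past 2-fold. The memory list then had 3 up and 1 down, interferon 3 up and 0 down of 12 and naive 0 up and 5 down of 9. The other S100 genes had 0 up and 0 down of 3, the other Ly6 family genes 0 up and 0 down of 2 and the annexins and S100 partners 0 up and 0 down of 9. None of the genes still measured in the last 3 lists was thus past 2-fold in tumor, and those that fell below 20 UMIs were not assessed.

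In the GENCODE vM39 annotation of GRCm39 S100a4 (ENSMUSG00000001020) lies at chr3:90511074-90513354, S100a6 (ENSMUSG00000001025) at chr3:90520140-90535843, S100a8 at chr3:90567118-90578128, S100a9 at chr3:90599931-90603071, S100a11 at chr3:93414382-93435293 and S100a10 at chr3:93462213-93474510. On chromosome 15 lie Ly6a (ENSMUSG00000075602) at chr15:74863840-74869880, Ly6c1 at chr15:74915847-74920686, Ly6c2 at chr15:74980003-74988467 and Ly6e at chr15:74826860-74847454. The S100 genes here spanned 2.96 Mb, with 71 protein-coding genes inside, 9 of them named S100. The Ly6 genes spanned 0.162 Mb, with 5 protein-coding genes inside, all named Ly6. Since the counts come from 3′ ends, the last 500 bases of each transcript were compared with other genes in windows of 91 bases. S100a4 shared 51.7% of its windows with Gm42674, a gene on the same strand that is not in the count files. Ly6a shared 41.7% with Gm28068, a long noncoding RNA on the opposite strand, which had 2, 14, 2, 7, 0 and 1 UMIs in the libraries. Ly6c1 and Ly6c2 shared 8.29% of their windows and were 98.2% identical over these bases, and the other 6 genes shared none. How reads of shared windows were assigned was not tested.

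Ly6c1 and Ly6c2 had an r of 0.95, so their promoters, 250 bases before to 50 after the start in GRCm39, are set side by side. They lie on the minus strand at chr15:74920614-74920913 and chr15:74983778-74984077 and were 73.2% identical in 314 aligned columns. Capitals mark the 3 runs of at least 15 bases that both share, the longest of 20 bases.
Ly6c1: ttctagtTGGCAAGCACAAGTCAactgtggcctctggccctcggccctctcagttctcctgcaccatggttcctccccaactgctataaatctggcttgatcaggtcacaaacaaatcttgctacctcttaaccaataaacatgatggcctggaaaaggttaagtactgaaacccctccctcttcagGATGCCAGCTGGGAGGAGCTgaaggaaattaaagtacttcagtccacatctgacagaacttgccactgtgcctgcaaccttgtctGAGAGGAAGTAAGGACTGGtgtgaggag
Ly6c2: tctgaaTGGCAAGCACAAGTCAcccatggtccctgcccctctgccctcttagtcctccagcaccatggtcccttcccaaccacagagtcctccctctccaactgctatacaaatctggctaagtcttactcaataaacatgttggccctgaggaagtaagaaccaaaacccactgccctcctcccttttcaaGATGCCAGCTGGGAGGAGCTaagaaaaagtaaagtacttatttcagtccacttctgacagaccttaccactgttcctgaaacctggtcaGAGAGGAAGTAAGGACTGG

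The promoter of S100a4, past 2-fold between labels in all 3 tissues among cells with CD8 RNA, is shown with its TATAAA in capitals, at bases -29 to -24 from the start, on the plus strand at chr3:90510825-90511124. Motifs were searched on both strands. TATAAA was in 13.2% of 21757 promoters and in those of S100a4, S100a9 and Ly6c1. TTCNNNGAA, in 8.82% of promoters, the interferon-stimulated response element, read as GAAA, any 2 bases and GAAA, in 3.84%, and TCACACCT, in 1.13%, were in 0 of the 10, which says only that these letters are not in these windows.
S100a4: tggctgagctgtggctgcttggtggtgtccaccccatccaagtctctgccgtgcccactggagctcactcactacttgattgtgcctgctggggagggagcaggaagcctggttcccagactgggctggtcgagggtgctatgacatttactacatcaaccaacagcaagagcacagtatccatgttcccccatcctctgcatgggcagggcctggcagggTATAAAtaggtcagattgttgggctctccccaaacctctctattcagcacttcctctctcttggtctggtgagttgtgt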

How the data were processed

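Each count is a raw UMI count per gene and cell barcode, as the authors deposited it, from PIPseq v3 libraries. The submitters' notes name Seurat 4.3.0 and the GRCm39 build, and the study's methods name PIPseq pipeline v3.2. No doublet caller was run here and the methods name no doublet step. UMIs were summed over cells of a class to CPM. Levels have exact Poisson intervals, ratios exact conditional binomial intervals and shares exact Clopper-Pearson intervals, all at 95%. The cell filter is that of the study's methods. Past the threshold means at least 2-fold in genes with at least 100 UMIs over the libraries compared. Likeness used log2(CPM + 1) over 12 points.

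The 10 genes were named in every library, and for each list the highest and lowest gene, the highest naive genes not being reported here, together with the 3 genes most like each member, which are not reported here for S100a6 and S100a10. The members and lists were chosen with earlier results of these data known. Tcrg-C1 and Mx1 are not in the files. Alternatives were another scaling, a total without mitochondrial genes, ribosomal protein genes and Malat1, thinning to 1000 UMIs, cell filters, CD8 definitions, other-lineage cells left out, all kept cells and a 1.5-fold threshold. Promoters were read from the GRCm39 genome at GENCODE vM39 canonical starts. The RefSeq promoter table is on GRCm38.p6 and was not used. The calculations were tested on simulated data. Python 3.11.15, NumPy 2.4.6, SciPy 1.17.1, pandas 2.3.3 and matplotlib 3.10.9 were used.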

Additional observations from a re-analysis of the deposited data

Results flagged for a closer look

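Ly6e gave a log2 ratio, Pdcd1 cKO over Pdcd1fl/fl, of 0.69 in spleen and 0.14 in tumor but -0.59 in thymus, in opposite directions, and the difference was not tested. Without other-lineage cells the tumor value was -0.45. In the spleen library labelled Pdcd1fl/fl, 6732 UMIs of the 10 genes lay in the 5451 barcodes outside the cell filter. Only the alternative without the cell filter uses them. S100a4 was at 8.34 CPM in those barcodes and 17.1 CPM in the cells kept, and S100a6 at 335 and 499 CPM.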

How the results depend on the processing

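Of 24 log2 ratios between labels, 0 turned direction without the cell filter and 0 with a stricter one, 2 under median-of-ratios scaling, 3 after thinning to 1000 UMIs, 3 with at least 2 UMIs of CD8 and 2 without other-lineage cells. S100a4 in thymus and spleen was past 2-fold in each of the 10 settings, from 2.89 and 1.62 upward, and S100a6 in tumor from 1.43. S100a11 in spleen ran from 0.85 to 1.09 and passed it in some settings. Only S100a4 and Ly6a were past the threshold in spleen under median-of-ratios scaling, the reduced total and no cell filter. This also held with either other CD8 definition, in all filtered cells and in Ccl5 cells. After thinning and with the stricter filter only S100a4 and S100a11 were. Without other-lineage cells all 3 were. With a threshold of 1.5-fold, 5 members were higher in thymus, 1 lower there, 5 higher in spleen and 4 higher in tumor. The share of all genes past 1.5-fold is not given here, so nothing about the 10 genes as a group is read from these counts. In tumor the count higher was 1 with at least 2 UMIs of CD8, 1 with other-lineage cells left out and 4 in all filtered cells. In cells with Ccl5 RNA and no other lineage, an alternative chosen after seeing the data, it was 1 in thymus and 1 in tumor. For these cell definitions the share of all genes past 2-fold, at the minimum of UMIs used for the members, is not given here. Among genes with at least 20 UMIs, the tumor share moved from 7.24 to 9.61% up and from 9.99 to 4.35% down without other-lineage cells. Nothing about the 10 genes as a group is therefore read from these counts either. The count lower in tumor than in spleen was 0 under median-of-ratios scaling. The cause was not tested. No paired analysis was possible within a tissue because each tissue had 1 library per genotype, which also left no replicate to leave out. A fit over the 3 tissues, with tissue as a factor, was not run. Depth limits S100a8 and S100a9, with at most 6 UMIs in a library, and S100a4 in the spleen library labelled Pdcd1fl/fl, with 20 UMIs in cells with CD8 RNA.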
